A study of Ambystoma mexicanum with 61 samples.

Results

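The intestine of the neotenic axolotl (*Ambystoma mexicanum*, strain d/d, adults aged 1 year that had kept their larval form) was examined in bulk RNA-seq libraries. Its members were the 2 libraries labelled neotenic intestine, batch numbers 1 and 2, of 61 libraries in all. They were set against 30 libraries of 16 other neotenic tissues, namely bladder, brain, cloacal chamber, eye, fore limb, gill, gonad, heart, hind limb, kidney, liver, lung, skin, spleen, stomach and tail. Each tissue was averaged first, so that it counted once. The second stomach and the second tail library were left out. The library labelled neotenic stomach replicate 2 held skin markers at a sum of 15880 counts per 1000000 counts of the library (CPM) and stomach markers at 1087 CPM, and that labelled neotenic tail replicate 2 held skin markers at 28.8 CPM and stomach markers at 21550 CPM. Both went against their labels. Every later CPM value was instead computed on library totals multiplied by edgeR's trimmed-mean scaling factors. These factors were 0.832 and 0.704 for intestine replicates 1 and 2. The neotenic animals had received no hormone. The 27 metamorphosed libraries came from animals of the same strain and age in which thyroxine had induced metamorphosis, and 2 of them were of intestine. The study names 2 animals for each state, and their sex was not stated.

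The lining of the vertebrate intestine is made mostly of enterocytes, absorptive cells whose apical surface is folded into a brush border. Enzymes anchored there complete the digestion of peptides, sugars and phosphate esters, and carriers beside them take up the products. Absorbed fat is repacked with apolipoproteins and exported, goblet cells secrete mucus, enteroendocrine cells secrete peptide hormones, and stem cells at the base of the epithelium renew it.

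The 2 intestine libraries held 8912820 and 7050029 counts assigned to genes, within the range of 2888466 to 16895107 (median 7983656) of the neotenic libraries used. A gene was called enriched at a log2 fold change of 2 or more against the mean of the 16 other tissues and an adjusted p below 0.05. The test was edgeR's quasi-likelihood test with Benjamini-Hochberg adjustment over all genes. That mean was taken over log levels, so tissues in which a gene is nearly silent pull it down. A gene can thus be enriched although other tissues are far higher. *Serpina1*, for example, was enriched at a mean of 143.9 CPM in intestine, with 12540 CPM in liver. Of 19827 gene models tested, 1347 were enriched (6.79%), 769 of them with a gene symbol, and 537 were low by the same rule (2.71%). The median log2 fold change was -0.135 over all genes tested and 3.43 over the enriched ones, which ranged from 2.00 to 12.11. The count of low genes rested on both libraries and fell to 224 without intestine replicate 1 and to 220 without intestine replicate 2. A fold against tissues in which a gene is almost silent depends on the small count that edgeR adds, so levels are given before folds. In bulk tissue, fewer cells of a type and less RNA per cell cannot be told apart.

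The enriched genes took up 41.7% and 45.5% of all counts in the 2 intestine libraries. Their share in the 30 other libraries was lowest at 2.51%, had a median of 4.04% and was highest at 31.2%, in cloacal chamber replicate 1. Of the 1347, 729 (54.1%) had their highest tissue mean in intestine, and for 437 (32.4%) both intestine libraries lay above every other library, as they did for 2.93% of all genes tested. The enriched genes were chosen from these same libraries, so higher shares among them follow from that choice. The mean level in intestine exceeded that of the next tissue by more than 4-fold for 148 genes and by more than 10-fold for 70.

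The peptide carrier gene *Slc15a1* had the second largest fold change of the genes named by fold. It encodes PEPT1, the apical carrier of dipeptides and tripeptides (gene model AMEXTC_0340000122616_slc15a1.S, 23 exons on scaffold AMEXG_0030004047 from 1271949 to 1462574, plus strand, AmexG_v3.0.0 build). It stood at 13160 and 17370 CPM in the intestine libraries. The highest other library, cloacal chamber replicate 1, had 91.7 CPM, and the median over the 30 other libraries was 3.83 CPM. The log2 fold change of *Slc15a1* was 11.58 (SE 0.54, adjusted p = 7.7e-13). Genes named by fold were required to have both intestine libraries above every other library, as 2.93% of all genes tested did.

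Of 24 brush border hydrolases listed, 12 were tested, and 11 of them were enriched, with none low. Over all genes tested 6.79% were enriched and 2.71% low, and the counts of this and later lists stand against these shares. Their median log2 fold change was 9.31, against -0.135 over all genes tested. The summed level of the 12 genes was 19090 and 24430 CPM in intestine and between 21.6 and 1877 CPM in the other libraries, where both kidney libraries were highest. *Anpep*, aminopeptidase N, stood at 2322 and 954 CPM in intestine and at 9.72 ± 2.75 CPM (SD, n = 2) in liver, the next tissue. *Mep1b*, the metalloprotease meprin beta, stood at 2613 and 2521 CPM, with 30.9 CPM in the highest other library. *Ace*, the peptidase known as angiotensin-converting enzyme, stood at 7249 and 13450 CPM and was next highest in spleen at 138.9 ± 5.39 CPM (SD, n = 2). These 3, and *Naaladl1*, *Mme*, *Alpi*, *Apoa4*, *Cd36*, *Pglyrp1* and *Olfm4* below, were also among the genes named by fold. That rule required both intestine libraries to lie above every other library.

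*Naaladl1*, a peptidase of the glutamate carboxypeptidase family, stood at 379.5 and 126.1 CPM, and in 13 of the 16 other tissues no library held more than 3 counts of it. *Mme*, the endopeptidase neprilysin, stood at 100.6 and 145.6 CPM, and no other library exceeded 7.49 CPM. *Alpi*, the intestinal alkaline phosphatase (scaffold AMEXG_0030003174, 1675753 to 1909543, minus strand), stood at 1941 and 3145 CPM, and was next highest in liver replicate 1 at 86.4 CPM. *Enpp7*, the alkaline sphingomyelinase that digests sphingomyelin in the gut lumen, stood at 2202 and 2423 CPM, above 31.1 CPM in the highest other library (log2 fold change 8.01, SE 0.23, adjusted p = 1.1e-15). By contrast, *Alpl*, the tissue-nonspecific alkaline phosphatase, was the 1 member not called, with 6.07 and 6.65 CPM in intestine and 341.6 CPM in spleen. *Amn* and *Cubn*, the receptor pair for vitamin B12 bound to intrinsic factor, were enriched but higher in kidney. *Cubn* stood at 87.0 and 103.3 CPM in intestine and at 525.0 ± 50.3 CPM (SD, n = 2) in kidney.

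**Figure D1:**
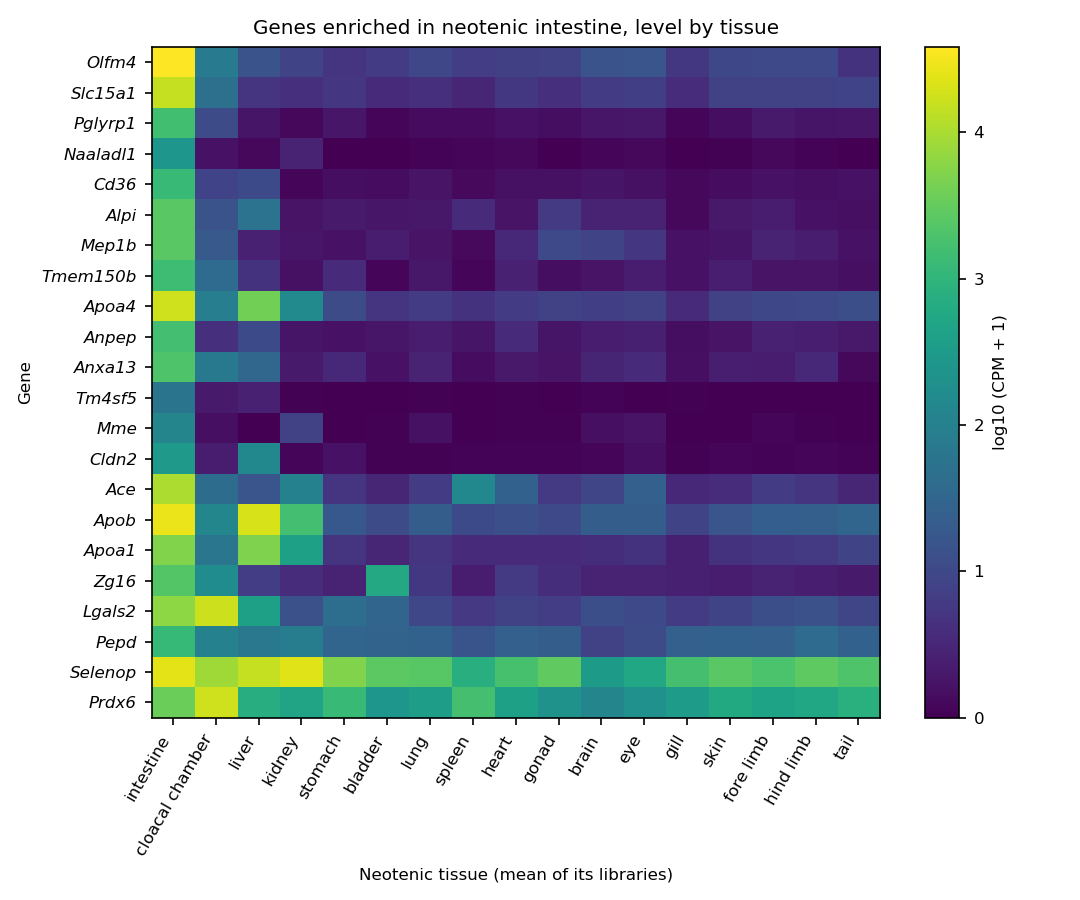
Mean level in each of the 17 neotenic tissues of the genes named for their fold change or their level per length, as log10 (CPM + 1), with genes in rows by fold change and tissues in columns. Stomach and tail have 1 library each. The intestine column is the brightest in most rows, *Apob* and *Apoa1* are as bright in liver, and *Lgals2* and *Prdx6* are brighter in cloacal chamber.

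A stricter comparison asked which genes were higher in intestine than in each of the 16 other tissues taken singly, by the largest of 16 one-sided p-values. It called 44 gene models (0.222% of those tested), all of them among the enriched, 33 with a symbol, and 277 passed at an unadjusted p below 0.05. The level in intestine was 2.80 to 518.5 times that of the next tissue, with a median ratio of 17.7. Together the 44 took up 6.88% and 10.2% of the counts in the intestine libraries and 0.0802% to 0.223% in the other neotenic libraries used. Because the 44 were chosen from these libraries, a larger share in intestine follows from that choice. The count was 72 without gonad replicate 1, 79 without gonad replicate 2, 29 without intestine replicate 2 and 28 without kidney replicate 1, kidney replicate 2 or liver replicate 2. They included 6 brush border hydrolases (*Enpp7*, *Mep1b*, *Naaladl1*, *Anpep*, *Ace* and *Alpi*), 3 members of the transporter list (*Slc15a1*, *Slc5a1* and *Slc13a2*) and the microvillus protein gene *Vil1*.

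Several peptidases outside the lists, named after their values were seen, were among the 44. Both gene models of *Pepd*, the prolidase that cleaves dipeptides ending in proline, were called. The more abundant one, of 1 exon, stood at 772.2 and 1624 CPM in intestine and at 101.3 CPM in cloacal chamber. *Rnpep*, aminopeptidase B, stood at 1091 and 1849 CPM with 187.1 CPM in the highest other library. *Xpnpep1*, a cytosolic aminopeptidase for X-Pro peptides, had the smallest ratio of the 44, with 966.4 and 1158 CPM in intestine and 379.6 CPM in cloacal chamber. *Lta4h*, leukotriene A4 hydrolase, which is also an aminopeptidase, stood at 1726 and 2353 CPM with 304.2 CPM in the highest other library. These 4 genes were above the floor in every tissue and were higher in intestine by log2 fold changes of 5.46, 4.57, 3.38 and 4.87.

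Of 32 nutrient and bile acid transporters listed, 21 were tested and 19 were enriched, with a median log2 fold change of 5.49. *Slc5a1*, the sodium-glucose cotransporter SGLT1, stood at 799.0 and 1015 CPM in intestine and at 102.7 ± 4.76 CPM (SD, n = 2) in kidney. A neighbouring model of the same symbol was also called, and fragments of near-identical copies may be divided between them. *Slc2a2*, the basolateral glucose carrier GLUT2, stood at 569.9 and 584.9 CPM but was higher in liver, at 1203 ± 440.0 CPM (SD, n = 2). *Slc13a2*, a dicarboxylate and citrate carrier, stood at 1076 and 1122 CPM, above the 90.2 CPM of the highest kidney library. *Slc7a7*, which exports cationic amino acids, stood at 1124 and 1430 CPM and at 235.9 CPM in kidney. *Slc3a1*, the partner subunit of the cystine carrier, stood at 142.0 and 189.7 CPM and at 52.6 CPM in kidney. Both intestine libraries lay above every other library for *Slc5a1*, *Slc13a2*, *Slc7a7* and *Slc3a1*, and not for *Slc2a2*.

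The bile acid carriers were less uniform. *Slc10a2*, the apical bile acid carrier of the mammalian ileum, had 893 counts (120.4 CPM) in replicate 1 and none in replicate 2. *Slc51b*, a subunit of the basolateral bile acid exporter, was enriched at 28.3 and 19.3 CPM but stood at 567.9 ± 176.0 CPM (SD, n = 2) in liver. Its partner *Slc51a* was not called, with 0 and 1.41 CPM in intestine.

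Of 17 genes of ion, metal and fluid transport tested, 9 were enriched and *Trpv6* was low (median log2 fold change 2.42). *Slc34a2*, a phosphate carrier, stood at 65.5 and 35.2 CPM, and no other library exceeded 2.16 CPM. *Slc31a1*, the copper importer, was present in every tissue and stood at 1192 and 1272 CPM in intestine against 256.7 CPM in lung. *Aqp8*, a water channel, stood at 686.3 and 347.6 CPM in intestine and at 553.5 CPM in the single stomach library. *Trpv6*, the apical calcium channel of the mammalian duodenum, had 0 counts in both intestine libraries and 46.6 ± 9.27 CPM (SD, n = 2) in gill, at least 92.3-fold lower in intestine when a floor of 3 counts per library is used. Its call was lost without gonad replicate 2 or spleen replicate 1.

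Lipid absorption genes were enriched almost throughout, but mostly with liver close behind. Of 33 listed, 22 were tested and 19 were enriched, with a median log2 fold change of 5.76. *Apoa4*, an apolipoprotein of intestinal lipid particles (scaffold AMEXG_0030070976, 56210 to 67812, minus strand), stood at 18160 and 18190 CPM in intestine and at 4081 ± 2514 CPM (SD, n = 2) in liver. *Apob*, their structural protein, stood at 31520 and 25080 CPM in intestine and at 20290 ± 5684 CPM (SD, n = 2) in liver, and the highest liver library lay just below the lower intestine library. *Apoa1* overlapped, with 4604 and 5672 CPM in intestine and up to 7612 CPM in liver.

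*Mttp*, which loads lipid onto apolipoprotein B, stood at 3595 and 2452 CPM in intestine and at 529.2 ± 155.1 CPM (SD, n = 2) in liver. *Cd36*, a fatty acid receptor, stood at 1448 and 1095 CPM, and no other library exceeded 14.9 CPM. *Acsl5*, an acyl-CoA synthetase, stood at 1270 and 1215 CPM against 107.2 CPM in cloacal chamber. *Npc1l1*, the sterol importer, stood at 126.5 and 121.4 CPM against 29.4 CPM in liver. *Scarb1*, another lipid receptor, was not called and stood at 351.4 and 266.0 CPM in intestine and 357.1 CPM in lung. *Cd36* and *Acsl5* were also higher than in every single tissue, whereas *Apob* and *Apoa4* were not called by that test.

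Per length, the enriched genes with the highest level in intestine were *Olfm4* (33770 TPM, or transcripts per 1000000 after division by gene length, as the mean of both libraries), *Apoa4* (18100 TPM), *Lgals2* (15560 TPM), *Selenop* (14280 TPM) and *Slc15a1* (8334 TPM). They were followed by *Pepd*, *Apoa1*, *Prdx6*, *Apob* and *Zg16*, from 4139 to 3188 TPM. *Selenop*, the plasma selenium carrier, was enriched against the mean at a log2 fold change of 3.28 (SE 0.50, adjusted p = 5.3e-05), with 27410 and 22210 CPM in intestine and 22470 ± 129.0 CPM (SD, n = 2) in kidney. *Prdx6*, a peroxidase, was 4351 and 2770 CPM in intestine and 17850 CPM in cloacal chamber.

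Of 13 genes of enterocyte structure and junctions tested, 9 were enriched, with a median log2 fold change of 3.01. *Vil1*, the actin bundler villin, stood at 2483 and 2430 CPM against 165.7 CPM in cloacal chamber and 173.5 CPM in the highest other library. *Myo1a*, the brush border myosin, stood at 1160 and 1055 CPM against 100.3 CPM there. *Cldn7*, a claudin of many epithelia, was also enriched, but stood at 382.5 CPM as the intestine mean and at 656.1 CPM in skin. Its call was lost when either intestine library was left out, and when the second stomach and tail libraries were kept. *Epcam* and *Krt18*, present in epithelia of many tissues, *Espn*, an actin bundler of microvilli, and *Tjp3*, a tight junction protein, were not called. *Epcam* stood at 798.9 and 804.0 CPM in intestine, where it ranked 7 of 17 tissues.

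Gut transcription factors were present at lower levels, and few of them were highest in intestine. Of 24 tested, 15 were enriched and 4 had their highest tissue mean in intestine (median log2 fold change 3.04). *Cdx2*, the caudal homeobox gene of hindgut and intestinal epithelium (scaffold AMEXG_0030003154, 3330087 to 3374594, minus strand), stood at 87.0 and 145.2 CPM in intestine and at 130.1 ± 70.7 CPM (SD, n = 2) in cloacal chamber. *Cdx1*, its relative, stood at 99.4 and 196.2 CPM in intestine and at 204.7 ± 25.7 CPM (SD, n = 2) in cloacal chamber. The libraries of these 2 tissues overlapped for both genes. *Gata4* stood at 130.3 and 149.6 CPM and was higher in heart, at 236.1 ± 25.0 CPM (SD, n = 2), and *Gata5* stood at 32.9 and 73.5 CPM around the 52.9 CPM of the single stomach library. *Hnf4g*, a nuclear receptor of enterocytes, stood at 81.9 and 28.6 CPM in intestine and at 48.2 CPM in the highest library of cloacal chamber.

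**Figure D2:**
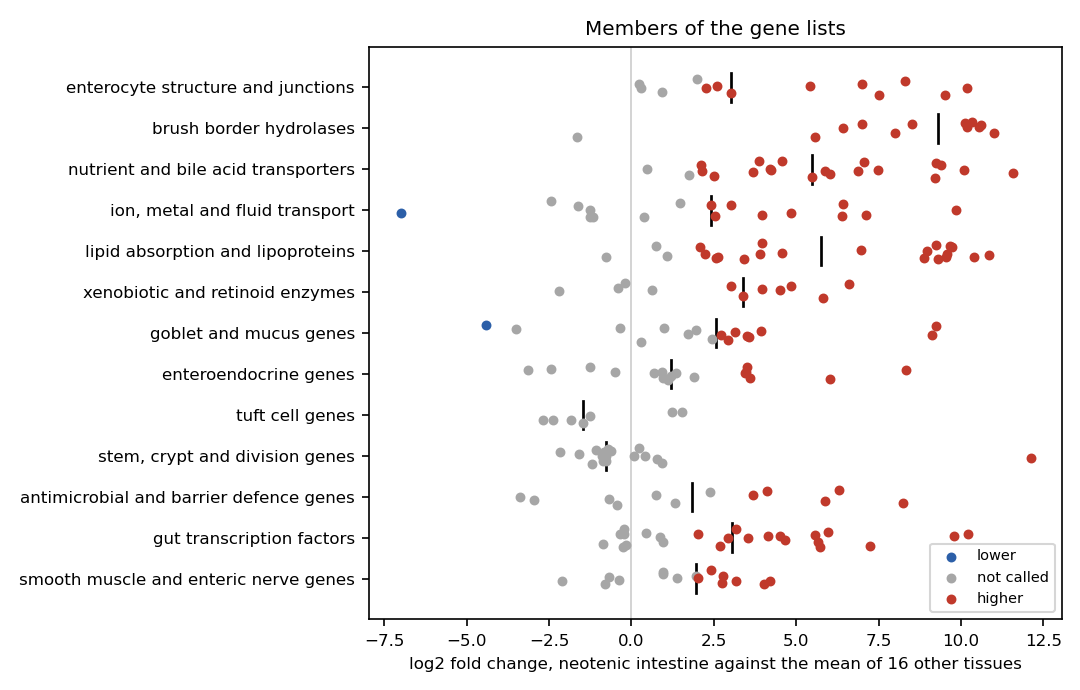
Log2 fold change of each tested member of 13 gene lists (points) in neotenic intestine against the mean of 16 other neotenic tissues, coloured by call, with the list median as a black line. Brush border hydrolases (median 9.31), lipid genes (5.76) and transporters (5.49) lie farthest to the right, and tuft cell genes (-1.47) and stem and division genes (-0.76) lie left of 0.

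Secretory and defence genes were divided. Of 16 goblet and mucus genes tested, 8 were enriched and 1, *Agr2*, was low (median log2 fold change 2.57). *Muc2*, the gel-forming mucin of the intestine, stood at 1438 and 928.5 CPM, and the cloacal chamber at 1458 ± 1159 CPM (SD, n = 2) overlapped with it. *Zg16*, a lectin of the mucus, stood at 2456 and 2098 CPM, above bladder at 580.2 ± 112.4 CPM (SD, n = 2). *Atoh1*, *Fcgbp*, *Kcnma1* and *Muc13* were enriched on low levels, at most 7.01 CPM in either library, and lost their call with a prior count of 2, which left 4 of 16. Without intestine replicate 1, 4 genes of the list were enriched and *Agr2* was not low. *Agr2*, a disulfide isomerase of mammalian goblet cells, stood at 0.270 and 1.41 CPM in intestine and at 419.2 CPM in skin.

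Of 12 antimicrobial and barrier defence genes tested, 5 were enriched (median log2 fold change 1.84). *Lgals2*, galectin-2, stood at 6286 and 6214 CPM in intestine but at 17420 ± 8202 CPM (SD, n = 2) in cloacal chamber. *Pigr*, which carries antibodies across epithelium, stood at 521.3 and 535.9 CPM and was higher in bladder at 672.6 CPM. *Reg4*, a secreted lectin, stood at 124.1 and 62.6 CPM, above 27.5 CPM in the highest other library. *Pglyrp1*, a peptidoglycan recognition protein outside this list, reached 2208 and 953.2 CPM with 20.8 CPM in the highest other library, and was also called against every single tissue.

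Enteroendocrine genes were enriched in part. Of 17 tested, 6 were enriched (*Mln*, *Vip*, *Nts*, *Nkx2-2*, *Chga* and *Gcg*), with a median log2 fold change of 1.19. *Mln*, the hormone motilin, stood at 8.09 and 92.0 CPM, and no other library exceeded 4.09 CPM. *Nts*, neurotensin, stood at 69.6 and 70.3 CPM in intestine and at 61.2 ± 4.28 CPM (SD, n = 2) in brain. *Chga*, the granule protein chromogranin A, was enriched against the mean log level only (log2 fold change 3.48, SE 0.51, adjusted p = 3.2e-05) and ranked 5 of 17 tissues. It stood at 61.9 and 115.4 CPM in intestine. Brain (771.5 CPM), kidney (418.5 CPM), eye (364.6 CPM) and the single stomach library (255.9 CPM) were higher. *Vip*, a neuropeptide of the gut wall, stood at 73.4 and 32.8 CPM, and the cloacal chamber lay between them at 51.5 CPM. Without intestine replicate 2, *Gcg*, the glucagon gene, and *Nkx2-2*, a transcription factor near the floor, lost their call, and 4 of 17 stayed enriched.

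None of 7 tuft cell genes tested was enriched or low in edgeR's test or in the DESeq2 Wald test (median log2 fold change -1.47). At an unadjusted p below 0.05 in edgeR 2 were higher and 1 was lower. With 6.79% of all genes tested enriched and 2.71% low, no call among 7 genes does not set them apart from genes at large. Of 17 stem, crypt and division genes tested, *Olfm4* alone was enriched and none was low, which is close to the shares over all genes. *Olfm4*, which encodes the secreted olfactomedin-4 and marks intestinal stem cells in humans (gene model AMEXTC_0340000042579_olfm4, 3 exons on scaffold AMEXG_0030000365 from 1822822 to 1945377, plus strand), had the largest fold change of all enriched genes. It stood at 12910 and 63650 CPM, and the highest other library was cloacal chamber replicate 1 at 139.1 CPM (log2 fold change 12.11, SE 0.57, adjusted p = 1.1e-12). The other 16 members were not called, and the median of the list was -0.76. *Lgr5*, the receptor that marks these stem cells in mouse, was near the floor at 0.135 and 0.403 CPM. *Mki67*, a marker of dividing cells, stood at 127.2 and 132.1 CPM, rank 14 of 17 tissues, at a log2 fold change of -0.62 (SE 0.34, adjusted p = 0.26), and spleen was highest at 709.8 CPM.

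Of 15 genes of smooth muscle and enteric nerve tested, 7 were enriched, and none had its highest level in intestine (median log2 fold change 1.95). They were *Myh11*, *Cnn1*, *Tagln*, *Acta2*, *Lmod1*, *Synpo2* and *Smtn*, and the mean of each was higher in stomach or bladder. *Myh11*, smooth muscle myosin, stood at 2232 and 1497 CPM in intestine and at 3646 CPM in the single stomach library. Of 11 xenobiotic and retinoid enzymes tested, 7 were enriched (median 3.39), among them *Maob*, a monoamine oxidase, at 2105 and 1970 CPM against 2497 CPM in cloacal chamber.

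Most markers of other organs were low or not called. Over all genes tested 6.79% were enriched and 2.71% low, and the counts for liver markers and for endothelial and stromal markers lie near these shares. Liver markers were enriched for 1 of 13 (*Serpina1*), stomach markers for 2 of 8 (*Anxa10* and *Vsig1*, both higher in replicate 2), immune markers for 1 of 8 (*Jchain*) and pancreas markers for 11 of 11. Of the 8 skeletal muscle markers 2 were low, of the 4 skin markers 3 and of the 3 erythroid markers all 3, while none of the 8 endothelial and stromal markers was called by edgeR, 2 were lower at an unadjusted p below 0.05 and 1 was low in the DESeq2 Wald test. With either intestine library left out, 0 skeletal muscle, 1 skin and 1 erythroid marker stayed low, and *Jchain* lost its call without replicate 1.

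Low genes were named by largest change among those with a symbol and at least 10 CPM in the mean of the other tissues. They were *Cacnb1*, *Trpv6*, *Sfrp2*, *Dlgap1* and *Ptx3*, in that order. *Cacnb1*, a calcium channel subunit of skeletal muscle, and *Dlgap1*, a scaffold of synapses, had 0 counts in both intestine libraries. With the floor of 3 counts per library they were at least 137.2-fold lower than in hind limb and at least 686.3-fold lower than in brain. *Sfrp2*, a secreted Wnt antagonist, stood at 0.135 and 0 CPM in intestine and 105.4 CPM in gill. *Ptx3*, a pentraxin, stood at 0.674 and 0.604 CPM and at 713.7 ± 504.8 CPM (SD, n = 2) in skin. *Cacnb1*, *Dlgap1* and *Ptx3* lost their call when either intestine library was left out, and *Trpv6* and *Sfrp2* did not. Of the 537 low genes, 54 (10.1%) had both intestine libraries below every other library, as did 0.757% of all genes tested. The low genes were chosen from the same libraries, so a higher share among them follows from that choice.

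The highest other tissue of an enriched gene was most often the cloacal chamber or the liver. For each gene the tissue with the highest mean outside intestine was recorded. It was the cloacal chamber for 347 enriched genes (25.8%), against 7.4% of all genes tested, and the liver for 315 (23.4%), against 7.3%. Kidney followed with 113 (8.4%) and stomach with 112 (8.3%). The cloacal chamber exceeded intestine for 155 of its 347 genes and the liver for 140 of its 315. The genes of liver include pancreas markers such as *Prss1*, *Cela1* and *Ctrc*. Summed pancreas markers stood at 2295 CPM in liver replicate 1 and at 119.7 CPM in liver replicate 2. Brain and gonad, the highest other tissue for 15.5% and 16.6% of all genes tested, were so for 5.5% and 4.1% of the enriched genes.

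**Figure D3:**
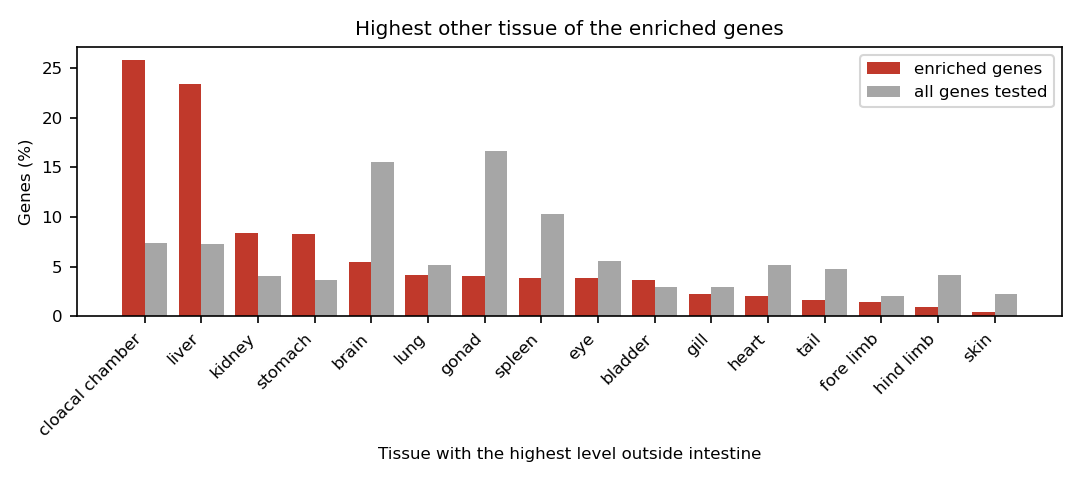
Share of genes, in percent, for which each of the 16 other neotenic tissues had the highest mean level outside intestine, for the 1347 enriched genes and for all 19827 genes tested. Cloacal chamber (25.8% against 7.4%) and liver (23.4% against 7.3%) have the longest bars of the enriched genes.

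Most genes named for their fold or level were counted at a low level in libraries of other tissues. In the 23 libraries outside intestine, cloacal chamber, liver, kidney and stomach, *Slc15a1* lay between 0.638 and 10.2 CPM. Its median was 0.0431% of the intestine level in batch 1 and 0.0205% in batch 2. *Olfm4* lay between 3.10 and 24.2 CPM in those libraries, with medians of 0.0382% and 0.0154% of the intestine level of the same batch. *Apoa4* lay between 0.912 and 16.1 CPM, with medians of 0.0393% and 0.0180%. Of the 22 genes so named, 19 had medians below 0.2% of the intestine level in both batches. The others were *Pepd* (3.06% and 1.23%), *Selenop* (7.13% and 8.60%) and *Prdx6* (8.89% and 12.7%). The genes were chosen for a high fold or level in intestine, and the tissues left out were those most often next to it. Small shares follow in part from these choices, and no share over all genes was set beside them. Whether the low counts come from those tissues was not tested.

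The 2 intestine libraries differed from each other for a part of the enriched genes. With 1 CPM added to each level, it differed by more than 4-fold for 134 of 1347 (9.95%), against 1.48% of all genes tested. Replicate 2 was the higher one for 104 of the 134. With that offset, genes near or below 1 CPM can hardly differ by 4-fold, and enriched genes were chosen for a high level in intestine. The 2 shares are therefore not like for like. The file header of replicate 2 calls its sample small intestine, and that of replicate 1 intestine. The segment, the animal and the batch cannot be told apart. For brush border hydrolases the call held with either library left out, with 11 of 12 enriched each time.

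Pancreas markers, genes known from that gland and most of them of digestive enzymes, were high in replicate 2 only. All 11 tested were higher there than in replicate 1, by at least 3.81-fold, and 5 of them had 3 counts or fewer in replicate 1. The summed level was 19.8 CPM in replicate 1 and 3518 CPM in replicate 2, and the 30 other libraries ranged from 3.37 CPM to 2295 CPM, with liver replicate 1 highest and a median of 7.54 CPM. *Prss1*, trypsin, stood at 2.02 and 1150 CPM, *Cela1*, an elastase, at 0.405 and 669.9 CPM, and *Ins*, insulin, at 3.64 and 116.6 CPM. Gene models of trypsin lie side by side and may divide reads among them. Without intestine replicate 2, 2 of the 11 stayed enriched, and the median log2 fold change was 0.58 in place of 7.94. In metamorphosed intestine, the sum was 6724 CPM in replicate 1 and 1630 CPM in replicate 2, and 10 of 11 were enriched. The other metamorphosed libraries ranged from 3.18 CPM in eye replicate 1 to 1742 CPM in hind limb replicate 2, above intestine replicate 2. Fore limb replicate 1 had 1019 CPM and tail replicate 1 had 592.5 CPM. Pancreas tissue lies against the gut, and its part in these values was not tested.

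Other genes differed in the opposite sense. *Slc10a2*, the bile acid carrier, was counted in replicate 1 alone, and without that library its log2 fold change was -2.78 in place of 9.20. *Tmigd1*, an adhesion protein of enterocytes and kidney cells, stood at 273.0 CPM in replicate 1 and 2.21 CPM in replicate 2, and at 199.6 CPM in cloacal chamber. *Slc15a2*, the peptide carrier PEPT2 known from kidney, stood at 405.8 and 52.8 CPM. Both were named after their values were seen. On the other side, *Tspan1*, a tetraspanin of epithelia, stood at 185.1 CPM in replicate 1 and 4554 CPM in replicate 2, and lost its call without replicate 2. *Slc46a1*, the folate carrier of the mammalian upper small intestine, stood at 22.4 and 155.7 CPM.

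**Figure D4:**
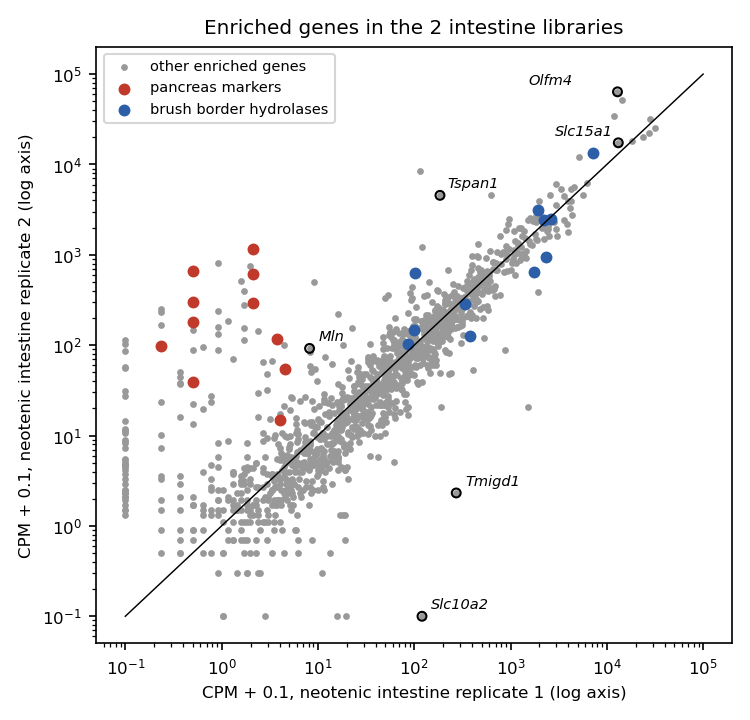
Level of the 1347 enriched genes in neotenic intestine replicate 1 (horizontal) and replicate 2 (vertical), both as CPM + 0.1 on log axes, with the line of equal levels. Pancreas markers (red, 11 genes) lie above the line, brush border hydrolases (blue, 11 genes) lie around it, and *Slc10a2* and *Tmigd1* lie below it.

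Enriched genes were often neighbours in the genome. Of the 1347, 315 (23.4%) lay directly next to another enriched gene model on the same scaffold, and 7.21% of all genes tested lay next to an enriched one. They formed 137 runs, 29 of them of 3 or more models, and the longest run had 8. Many runs held models with the same symbol, among them 3 models of *Prss2* beside *Prss1*, *G6pc* beside 3 models of *G6pc2*, and 2 models of *Muc2*, all chosen here after their values were seen. Neighbouring models of a single gene and true gene copies cannot be told apart from the annotation used.

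The intestine of metamorphosed animals was compared with 14 other metamorphosed tissues in a separate fit, which shares no library with the neotenic one. Brain, fore limb and heart had 1 library each there. The fit called 806 of 18916 genes enriched (4.26%). Of the 1347 genes enriched in neotenic intestine, 1300 were tested, 694 were also enriched in metamorphosed intestine, 1270 had a positive log2 fold change and none was called low by edgeR, with 1 lower at an unadjusted p below 0.05. The 694 are 51.5% of the neotenic and 86.1% of the metamorphosed enriched genes. The median log2 fold change of the 1300 was 3.37 in the neotenic and 2.36 in the metamorphosed comparison, a difference that was not tested. Of the 44 genes higher in neotenic intestine than in every other tissue, 39 were enriched in metamorphosed intestine, and their median log2 fold change there was 5.26.

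Within the metamorphosed fit, *Anpep* (808.3 and 235.5 CPM in intestine, highest other library 11.8 CPM) and *Pglyrp1* (471.0 and 385.8 CPM, highest other library 6.06 CPM) stood apart from all other tissues. *Slc15a1* stood at 9075 and 5426 CPM, but at 2498 CPM in skin replicate 2. Of 12 brush border hydrolases, 11 were enriched there as well, and their summed level was 14900 and 9632 CPM in intestine. Of 21 transporters 13 were enriched, and of 22 lipid genes 12. *Slc10a2* was not called, at 0.551 and 0.258 CPM. *Nts* (log2 fold change 2.10, adjusted p = 0.14) and *Chga* (0.83, adjusted p = 0.87) were not called either.

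Some metamorphosed libraries that bear other labels held intestine genes. The 44 genes took up 4.97% and 2.79% of the counts in metamorphosed intestine. The share was also raised in the libraries labelled skin replicate 2 (1.68%), fore limb replicate 1 (1.54%), hind limb replicate 2 (1.44%) and bladder replicate 2 (0.926%), and lay between 0.0967% and 0.349% in the 21 others. Summed brush border hydrolases stood at 5114, 4690, 4665 and 2822 CPM in those 4 libraries, in the same order. Without them, and so without any fore limb library, 1286 genes were enriched in metamorphosed intestine in place of 806. Of the 1286, 828 were enriched in neotenic intestine in place of 694. Metamorphosed skin replicate 1 held only 69278 counts. The call also rested on intestine replicate 1, without which 134 genes were enriched.

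**Figure D5:**
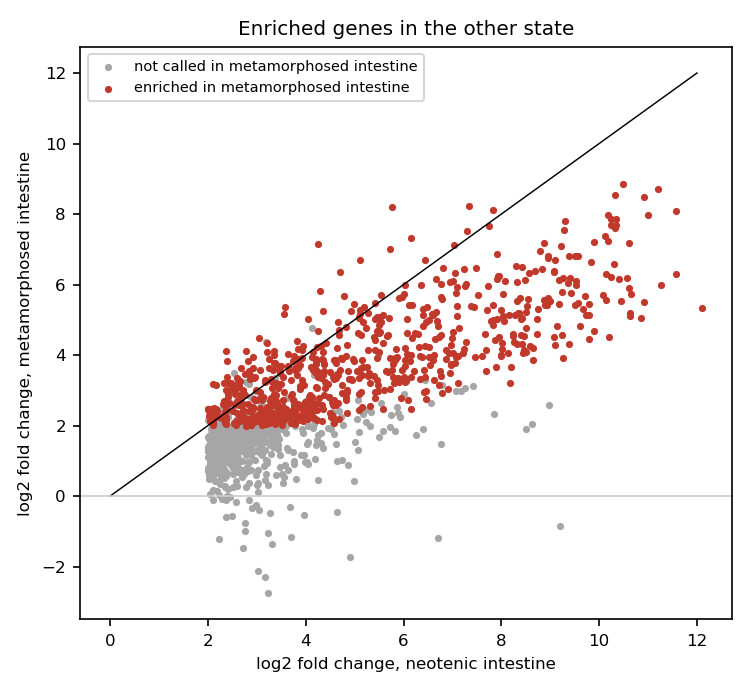
Log2 fold change of the 1300 genes enriched in neotenic intestine and tested in both states, in neotenic intestine (horizontal) and metamorphosed intestine (vertical), with the line of equal change. Red points (694) were enriched in both, and 1270 points lie above 0.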

How the data were processed

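Total RNA of each tissue was purified with TRIzol, and libraries were made by tagmentation with transposase and read from both ends on Illumina flow cells. The authors deposited raw counts per gene model, made with featureCounts 1.6.0 on the AmexG_v3.0.0 annotation per the file headers, counting fragments over exons without strand. The submitters' notes also name STAR and DESeq2. Without strand, overlapping genes cannot be told apart.

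Counts were fitted with edgeR 4.0.16 (R 4.3.3), with trimmed-mean scaling, filterByExpr, a quasi-likelihood fit with 1 coefficient for each of 17 tissues, and a prior count of 0.125 in fold changes. Stomach and tail, with 1 library each, were assumed to vary like the other tissues. Metamorphosed libraries were scaled and fitted separately, so levels are not compared between states. Precision was set by 2 libraries per tissue and 15 residual degrees of freedom, and floors of 3 counts cover counting error only. The labels give each library the batch number 1 or 2 and do not state whether equal numbers share an animal. The main fit used no batch term. Deviations of same-numbered libraries from their tissue means correlated at -0.137 to 0.543 (median 0.118) over 105 pairs of tissues, and intestine with others at -0.108 to 0.253.

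Named genes were the 15 enriched genes with the largest fold change, a symbol, at least 10 CPM in both intestine libraries and both above every other library. The 10 enriched genes with a symbol and the highest TPM were added. So were the 5 lowest with a symbol and at least 10 CPM in the mean of the other tissues. Genes the study names for the gut, and leading or defining members of 21 lists, were also named. One gene model per symbol was used, that with most counts. The members and lists were chosen with earlier results of these data known. Symbols were present for 13667 of 23251 gene models, and the analysis was tested on simulated data. Alternatives were other scaling, filters, thresholds and tests (DESeq2 1.42.0), the batch block, other library sets and each library left out. Sequences were not used here.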

Additional observations from a re-analysis of the deposited data

Results flagged for a closer look

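For 2 named genes, both neotenic intestine libraries lay on one side of the mean log level of the other neotenic tissues. Both metamorphosed intestine libraries lay on the opposite side of that of the other metamorphosed tissues, and neither difference was tested. *Pck1*, an enzyme of glucose synthesis, had a log2 fold change of 3.96 in neotenic intestine and -0.54 in metamorphosed intestine, where it was not called. It stood at 3.24 CPM in neotenic replicate 1 and 66.9 CPM in replicate 2, and lost its call without replicate 2. Neotenic cloacal chamber was far higher, at 3305 CPM against an intestine mean of 35.05 CPM. *Krt12*, a keratin counted among the skin markers, had a log2 fold change of -2.64 in neotenic intestine and 4.99 in metamorphosed intestine. It stood at 13.2 and 6.45 CPM in neotenic intestine, and lost its call without either library. In the metamorphosed fit it stood at 21.6 and 5.68 CPM in intestine and at most at 3.17 CPM elsewhere, and the summed skin markers were 47.4 and 224.4 CPM in metamorphosed intestine.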

How the results depend on the processing

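Enriched genes numbered 1347. They numbered 1152 to 1403 with size factors of DESeq2 in edgeR, no filter on low counts, counts summed by symbol, the DESeq2 Wald test (1182), stomach and tail changed, gonad left out or a prior count of 2 (chosen after seeing the data), and 1099 to 1467 with single libraries left out. Of the 1099 without intestine replicate 1, 1045 were among the 1347, and of the 1128 without replicate 2, 1047 were. At a log2 fold change of at least 4 or 1 the count was 538 or 2094. Low genes (537) numbered 918 by the DESeq2 Wald test, 124 and 940 at those thresholds, and 220 to 729 with single libraries left out. Genes above every other tissue (44) numbered 93 without gonad and 28 to 79 with single libraries left out. Genes enriched in metamorphosed intestine (806) numbered 1286 without the 4 libraries that held intestine genes, 297 at a threshold of 4, and 134 to 959 with single libraries left out. The cause was not tested.

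With the batch as a replicate block, 1352 genes were enriched, 578 low, 48 above every other tissue and 915 enriched in metamorphosed intestine, and no call of the 152 named genes that were called was lost. Size factors of DESeq2 moved the median over all genes from -0.135 to -0.152 (log2) and lost the call of *Smtn*. With intestine replicate 2 or replicate 1 left out, the log2 fold change was -0.12 or 10.51 for *Cela1*, -0.54 or 8.93 for *Cela3b*, -2.82 or 5.91 for *Cpa1*, -1.23 or 3.84 for *Vsig1*, -4.98 or 1.61 for *Slc51a*, 10.20 or -2.78 for *Slc10a2* and 0.55 or -0.28 for *Espn*, which was not called and stood at -0.06 with a prior count of 2. Those 2 settings lost 30 and 20 further calls of the 152. In simulated data for the comparison with the mean of 16 tissues (19462 genes), 90% of genes raised 8-fold and 62% of those lowered 8-fold were called, and of genes raised 8-fold above the highest other tissue 52% were called above every tissue. Genes with few counts were not among those changed, and the simulated spread depended only on the level of a gene. The rates therefore do not cover genes near the floor or genes with a larger spread.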
